A study of Mus musculus with 8 samples.

Results

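The change of the injured dorsal root ganglia from day 1 to days 3 and 7 after spinal nerve ligation was measured by RNA sequencing. It rests on 3 of the 8 libraries of the series, injured day 3 and injured day 7 set against injured day 1. The 3 contralateral libraries of the same mice and days were fitted with them. Contralateral values are printed for many named genes but not for all. A gene shown with injured values alone may also have changed contralaterally. Of the 53801 genes in the deposited table, 13528 had at least 50 reads in the highest of the 3 injured libraries and were tested. A further 13395 genes had between 1 and 49 reads there, and 26878 had none. At the limit itself, 35 genes had exactly 50 reads and 36 had 49.

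The dorsal root ganglion holds the cell bodies of sensory neurons, each wrapped by satellite glia, together with Schwann cells, fibroblasts, vessels and resident macrophages. When their peripheral axon is cut or tied, these neurons switch on stress and growth genes and turn down many of the genes for neuropeptides, ion channels and receptors that carry sensory signals. Macrophages gather around the injured cell bodies, where neuron-derived colony-stimulating factor supports them, and glia and fibroblasts alter their own programmes over the following days.

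Per the labels, male C57BL/6J mice had the left L4 spinal nerve tightly ligated under isoflurane, and the wound received local anaesthetic. Ganglia L3 to L5 were pooled, so an injured library also contains neighbouring ganglia that were left unligated. RNA of 3 mice was pooled in each library, with 1 library of the injured (left) and 1 of the contralateral side at days 1, 3 and 7, and a left and a right library of a further pool labelled no injury. All operated groups share the skin incision, the bone removal and the anaesthesia, and sham-operated mice, which the protocol mentions, were not analysed here. Because each side and day has a single library of pooled mice, p-values measure the spread between days 3 and 7 only, and a level at a single day has no replicate error.

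Total counts ran from 20488115 to 21652688 reads per library, and levels are given as CPM, read counts scaled to library size with TMM factors. The pool labelled no injury did not carry the male signature of the operated libraries: the Y-linked gene Kdm5d stood between 13.2 and 16.6 CPM in the 6 operated libraries and had no read in either library of that pool, and its skeletal muscle genes were also high, with a summed level of 369.5 and 1810 CPM against 109 to 258 CPM elsewhere. Ratios to that pool are therefore given as values only. The summed level of 15 neutrophil and marrow granule genes was 39.6 CPM in the injured day 1 library, the lowest of all, and 609 CPM in its contralateral partner, the highest. All libraries held neuronal RNA throughout: 21 pan-neuronal genes summed to between 14139 and 17390.3 CPM, and the injury marker Atf3 stood at 472, 617 and 615 CPM on injured days 1, 3 and 7 against 10.8 and 11.02 CPM without injury.

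Both later libraries were compared with day 1 in a model with 4 group means (injured and contralateral, day 1 and later; edgeR quasi-likelihood F test, Benjamini-Hochberg adjusted p under 0.05), in which "rose" and "fell" below refer to this test. On the injured side 834 of 13528 genes rose (6.16%) and 1151 fell (8.51%). The rises were larger than the falls: the median fitted change was 1.70-fold among genes that rose and 0.709-fold among genes that fell, and 320 genes rose but 101 fell by at least 2-fold. On the contralateral side 6 genes rose (0.0444%) and 16 fell (0.118%), with 602 and 594 at an unadjusted p under 0.05. Of the 834 genes that rose in the injured ganglia, 689 also had a contralateral estimate above 0, with a median of 0.21 on the log2 scale against 0.77 on the injured side. Of the 1151 that fell, 953 had a contralateral estimate below 0, with a median of -0.11 against -0.50. Over all 13528 genes the median contralateral estimate was 0.0052. Both groups were chosen by their injured change, so a larger median on that side follows in part from the choice.

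**Figure D1:**
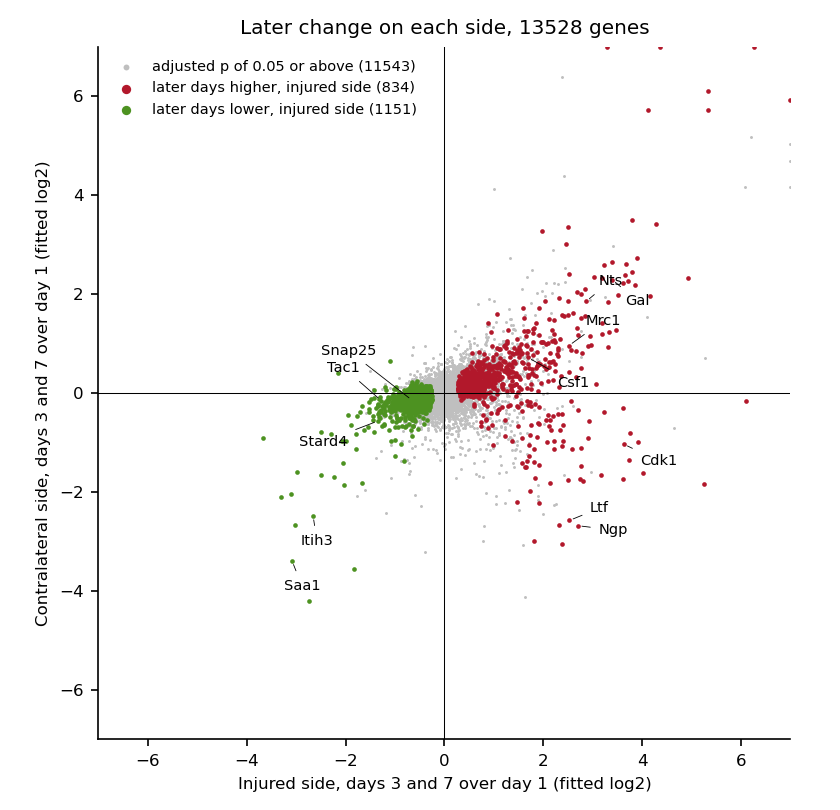
Fitted log2 change from day 1 to days 3 and 7 on the injured side (x axis) and on the contralateral side (y axis), 1 point per gene for 13528 genes; red and green points passed the injured-side test as higher (834) or lower (1151), and grey points did not. The 7 genes beyond 7 on either axis are drawn at the edge. Coloured points were chosen by their injured change, and most lie closer to 0 on the y axis than on the x axis. A group of red points that includes Ngp, Ltf and Cdk1 lies below 0 on the y axis.

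The number of calls depends on which later library sets the error. It was 1332 and 1377 without injured day 3, 1515 and 1498 without injured day 7, 648 and 750 without contralateral day 3, and 635 and 739 without contralateral day 7 (higher and lower). With every gene that had a read it was 1733 and 1677, and with DESeq2 603 and 690. In bulk ganglia, fewer cells of a type and less RNA per cell cannot be told apart, and this holds for every level below.

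Measured day by day, 648 genes stood at least 2-fold above day 1 at day 3 (4.79%) and 139 at least 2-fold below (1.03%). At day 7 these counts were 533 (3.94%) and 163 (1.2%). Both ratios share the day 1 library, so their values are given side by side and not as 2 findings. The contralateral counts were 115 (0.85%) and 180 (1.33%) at day 3, and 199 (1.47%) and 120 (0.887%) at day 7. From day 3 to day 7 the injured ganglia moved less: 46 genes exceeded their day 3 level by 2-fold or more (0.34%) and 120 lay that far below it (0.887%). Counting both days together, 423 genes were 2-fold above day 1 at both (3.13%) and 84 below (0.621%), and of these 286 (2.11%) and 74 (0.547%) also passed the test. The injured maximum fell on day 1 in 5573 genes (41.2%), on day 3 in 3847 (28.4%) and on day 7 in 4108 (30.4%). Single-library ratios have no test.

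**Figure D2:**
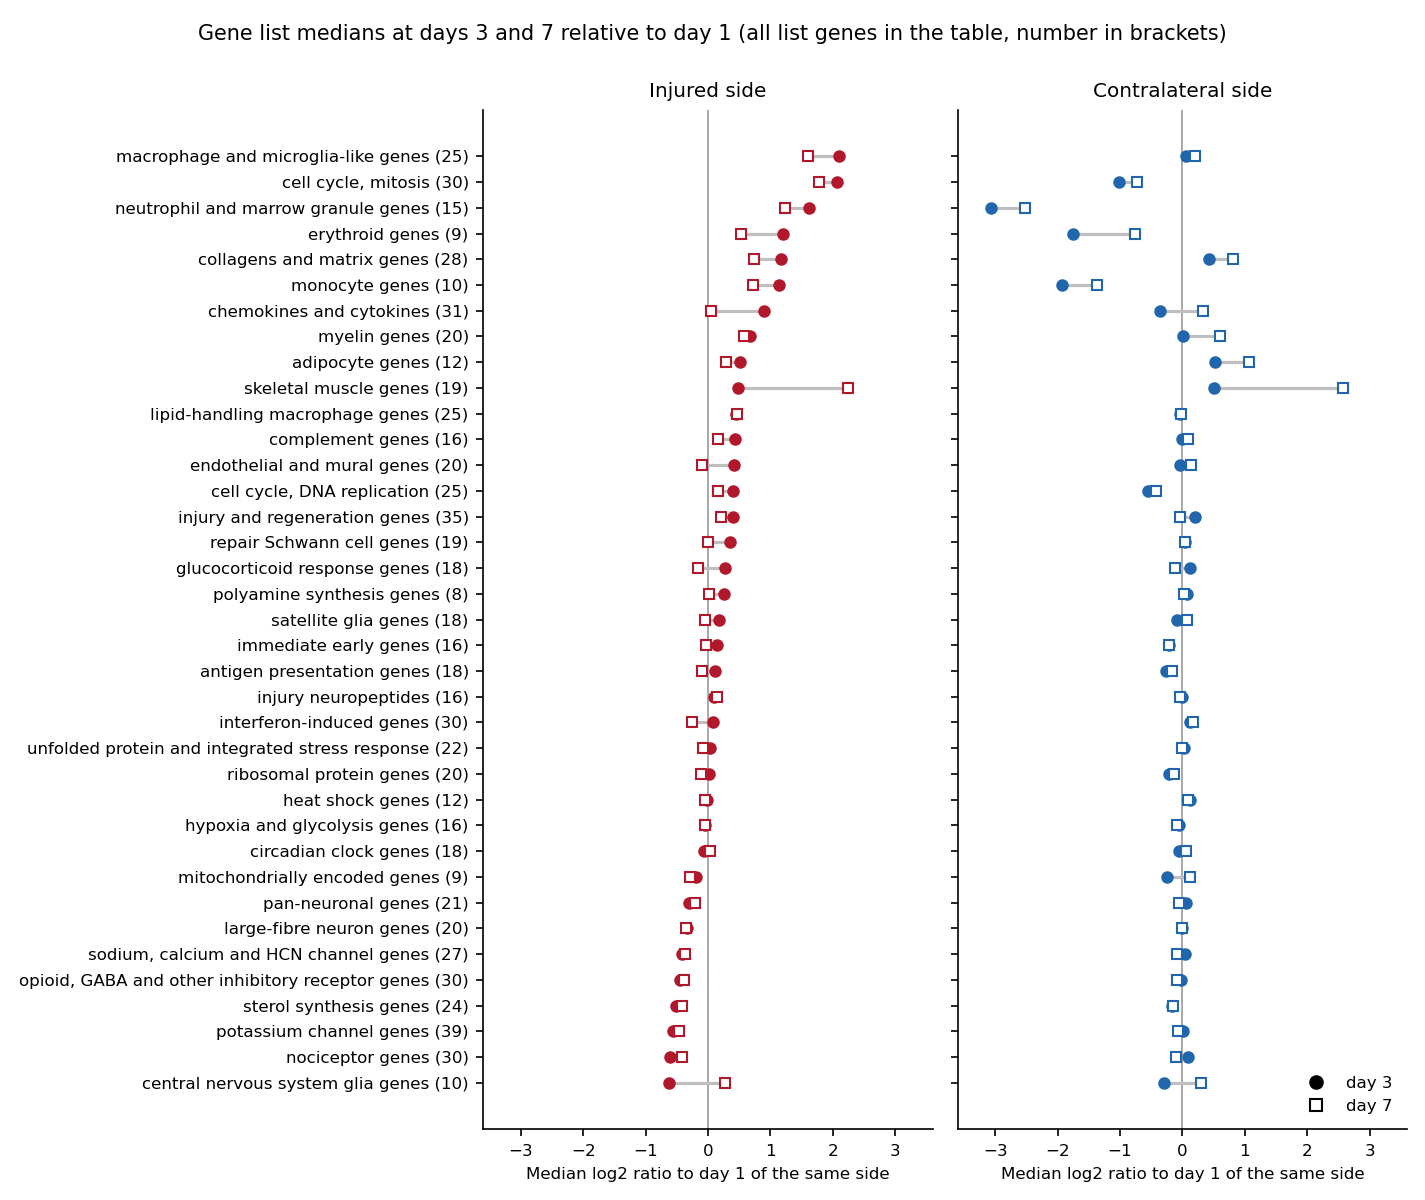
Median log2 ratio to day 1 of the same side for 37 gene lists (rows), at day 3 (filled circles) and day 7 (open squares), with the injured side on the left and the contralateral side on the right. Macrophage, mitosis and marrow granule lists lie farthest to the right on the injured side at day 3, and sterol, potassium channel and nociceptor lists lie left of 0; the marrow granule list lies at -3.06 and -2.52 on the contralateral side. Each median covers all list genes in the table; the median of all 13528 tested genes is within 0.01 of 0 in each case.

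Neuropeptide genes gave some of the largest rises. Of 14 measured injury-related neuropeptides, 4 rose (Nts, Gal, Crh and Ucn) and 4 fell (Calcb, Tac1, Nmb and Calca), against 6.16% and 8.51% of all genes. Nts, which encodes neurotensin (chr10:102481756-102490486), stood at 17.3 CPM on injured day 1, 118 on day 3 and 135 on day 7. Contralaterally it stood at 10.9, 40.9 and 38.2 CPM, and without injury at 7.21 and 7.69 CPM. All later libraries of both sides were thus above day 1, with a fitted injured rise of 2.87 ± 0.12 (SE, log2; edgeR adjusted p = 3.98e-05) and a contralateral rise of 1.85 ± 0.12 (edgeR adjusted p = 0.000979).

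Gal, the gene of the inhibitory peptide galanin that injured sensory neurons are known to make (chr19:3409915-3414544), went from 47.1 CPM on day 1 to 456 and 534 CPM. The contralateral ganglia had 22.2, 135 and 83.2 CPM and the pool without injury 8.26 and 10.3 CPM, so day 1 was already above that pool on both sides. The injured rise of 3.39 ± 0.44 on the log2 scale passed at an edgeR adjusted p of 0.0407, and did not pass without injured day 3 or without injured day 7. Crh, the corticotropin-releasing hormone gene, had 0.645, 6.77 and 9.86 CPM on the injured side (log2 rise 3.67 ± 0.42, edgeR adjusted p = 0.00173), and its relative Ucn (urocortin) 0.348, 3.11 and 1.93 CPM. Npy, the neuropeptide Y gene, went from 1.29 to 49.6 and 126 CPM, 38.4 and 97.9 times the day 1 level. It did not pass (edgeR adjusted p = 0.127), its later libraries lying more than 2-fold apart.

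The sensory peptides moved the other way. Tac1, the substance P precursor, stood at 335 CPM on injured day 1, then 128 and 148 CPM, while the contralateral ganglia had 236, 221 and 204 CPM. The injured day 1 library was the highest of all 8 and the later injured libraries the lowest, a fall of -1.28 ± 0.10 (log2; edgeR adjusted p = 0.000669). Calca, the gene of calcitonin and calcitonin gene-related peptide, had 1436, 903 and 902 CPM on the injured side and its relative Calcb 124, 50.8 and 52.2 CPM. Nmb (neuromedin B) had 95.7, 49.1 and 42.1 CPM. On the contralateral side the estimates of these 4 genes lay between -0.37 and -0.15 on the log2 scale, and none passed there.

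**Figure D3:**
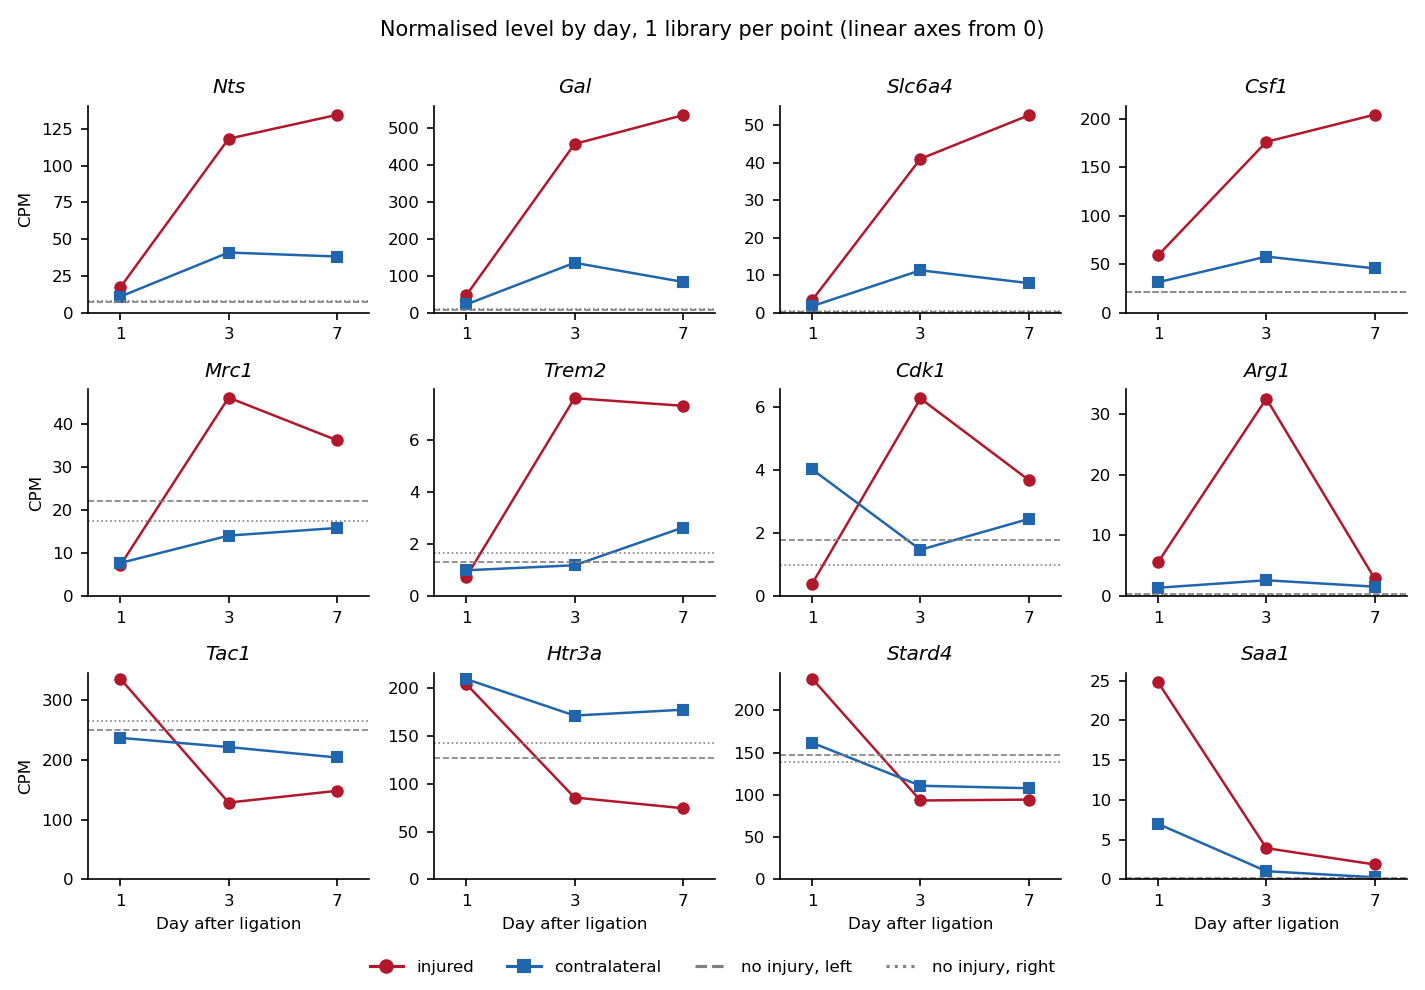
CPM by day after ligation for 12 genes, with 1 library per point: injured side (red circles), contralateral side (blue squares) and the left (dashed) and right (dotted) library labelled no injury. Nts, Gal, Slc6a4 and Csf1 are higher at both later days on the injured side, Arg1 only at day 3, and Tac1, Htr3a, Stard4 and Saa1 are lower at both later days. Axes are linear and start at 0.

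Among 33 measured injury and regeneration genes, 9 rose (27.3%, against 6.16% of all genes) and 2 fell (6.06%, against 8.51%). Many were already high on day 1. The list's median over the pool without injury was 1.24, 1.52 and 1.42 on the log2 scale at injured days 1, 3 and 7. The 9 that rose were Stmn4, Tubb2b, Cdkn1a, Gap43, Klf6, Smad1, Basp1, Sox11 and Tubb3, which include growth cone and microtubule genes. Gap43, a growth cone protein gene, had 234, 611 and 795 CPM on the injured side and 201, 315 and 295 CPM contralaterally (injured rise 1.59 ± 0.17 log2, edgeR adjusted p = 0.00423). Stmn4, a tubulin-binding stathmin, had 50.8, 126 and 151 CPM (edgeR adjusted p = 0.00102). In both genes day 1 was also the lowest of the contralateral libraries, at lower levels. Sprr1a, a well-known regeneration marker, went from 9.28 to 457 and 912 CPM, and from 3.54 to 128 and 129 CPM contralaterally, against 0.143 and 0.324 CPM without injury. With its later libraries 2-fold apart it stayed at an edgeR adjusted p of 0.0596. Atf3 (levels above) and Jun, the paired stress transcription factors, had later estimates of 0.39 ± 0.29 and -0.18 ± 0.10, and neither passed. The 2 that fell were Nrn1 (neuritin), with 388, 231 and 238 CPM, and the tetraspanin gene Cd9.

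The abundant genes that rose most were chosen after the values were seen, as the 12 largest rises among genes past the test, 2-fold at both days and at 20 CPM or more. Slc6a4, the serotonin transporter, had 3.38, 41.1 and 52.7 CPM on the injured side, 1.75, 11.3 and 7.89 CPM contralaterally and 0.191 and 0.417 CPM without injury. Its fitted rise was 13.9-fold (log2 3.79 ± 0.32, edgeR adjusted p = 0.00298). Cckbr, a cholecystokinin receptor, had 4.87, 26.7 and 43.2 CPM, Draxin, an axon guidance gene, 2.04, 13.6 and 23.5 CPM, and Lmo7, a LIM domain gene, 25.4, 158 and 186 CPM. The calls of Cckbr and Draxin did not hold under limma-voom. In Slc6a4, Cckbr, Draxin and Lmo7 both later injured libraries exceeded every contralateral library. Lipn, a lipase family gene, had 5 reads on injured day 1 and 382 and 457 on days 3 and 7, with 0, 97 and 59 contralaterally and none without injury. The day 3 and day 7 levels were 71.3 and 86.8 times that of day 1 on the injured side (log2 rise 6.27 ± 0.48, edgeR adjusted p = 0.000877). Cacna2d1, the calcium channel subunit bound by gabapentin, was the only riser among 27 sodium, calcium and HCN channel genes, with 409, 776 and 966 CPM (1.09 ± 0.16 log2, edgeR adjusted p = 0.0101).

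Potassium channel genes fell more often than not. Of 38 measured potassium channel genes 26 fell and none rose, against 8.51% of all genes falling, and the list's median was -0.55 at day 3 and -0.47 at day 7 on the log2 scale, beside 0.00 and -0.06 contralaterally. Kcns3, a modulatory subunit, had 69.1, 39.9 and 38.0 CPM on the injured side and 70.0, 64.4 and 68.6 CPM contralaterally (-0.83 ± 0.09 log2, edgeR adjusted p = 0.00115). Kcng4 had 25.2, 12.1 and 10.5 CPM and Kcna2, a juxtaparanodal channel of large fibres, 496, 303 and 319 CPM. In all 3 genes the 2 later injured libraries were the lowest of the 8.

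Sodium, calcium and HCN channels gave 14 falls and 1 rise among 27 genes, and 12 were not called. Of all genes 8.51% fell and 6.16% rose. Scn10a, the nociceptor sodium channel NaV1.8, had 909, 533 and 570.1 CPM on the injured side, beside 948, 1015 and 893 CPM contralaterally (-0.72 ± 0.10 log2, edgeR adjusted p = 0.00349). Cacnb4, a calcium channel beta subunit, had 211, 111 and 122 CPM, and Scn1a 153, 101 and 97.95 CPM. Against 8.51% and 6.16% of all genes, 11 of 29 measured opioid, GABA and other inhibitory receptor genes fell and none rose. They include the opioid receptor genes Oprm1 (17.7, 8.58 and 11.6 CPM; edgeR adjusted p = 0.0401), Oprk1, Oprd1 and Oprl1 and the GABA-A receptor gene Gabra3. Gabra3 had 25.2, 13.9 and 12.9 CPM against 21.5, 21.1 and 20.1 CPM contralaterally (-0.91 ± 0.12 log2, edgeR adjusted p = 0.00266).

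Markers of neuron classes showed the same direction. Of 30 nociceptor genes 15 fell and none rose, against 8.51% and 6.16% of all genes. The list's medians were -0.60 and -0.42 at days 3 and 7 (contralateral 0.09 and -0.11). Of 20 large-fibre genes 11 fell and none rose, against the same shares of all genes. Their medians were -0.34 and -0.35 (contralateral -0.01 and 0.00). Htr3a, an ion channel receptor for serotonin, had 204, 85.4 and 74.3 CPM on the injured side and 209, 171 and 177 CPM contralaterally. The injured fall was -1.35 ± 0.09 (log2; edgeR adjusted p = 0.000368), and the difference between sides of -1.09 ± 0.15 did not pass (edgeR adjusted p = 0.119). Nppb, the natriuretic peptide of itch neurons, had 19.7, 7.79 and 8.25 CPM and Trpa1, an irritant-gated channel, 116, 47.6 and 59.2 CPM. Among the large-fibre genes, Necab2 had 18.4, 9.55 and 8.68 CPM and Vsnl1, a calcium sensor, 176, 118 and 104 CPM.

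Of 21 pan-neuronal genes 9 fell, 3 rose and 9 were not called, while 8.51% of all genes fell and 6.16% rose. Among those that fell were Scg2, a secretory granule protein (597, 332 and 373 CPM) and Snap25, a vesicle fusion protein (1949, 1320.1 and 1163 CPM; -0.65 ± 0.11 log2, edgeR adjusted p = 0.0063). The 3 that rose were the cytoskeletal genes Stmn2 (2229, 2992 and 3627 CPM) and Tubb3 and the RNA-binding gene Elavl3. The contralateral estimate was -0.15 ± 0.11 for Snap25 and 0.11 ± 0.12 for Stmn2. Further abundant genes that fell were Cysltr2, a leukotriene receptor, with 22.3, 8.30 and 9.67 CPM, and Tmem79, with 231, 106 and 93.3 CPM.

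**Figure D4:**
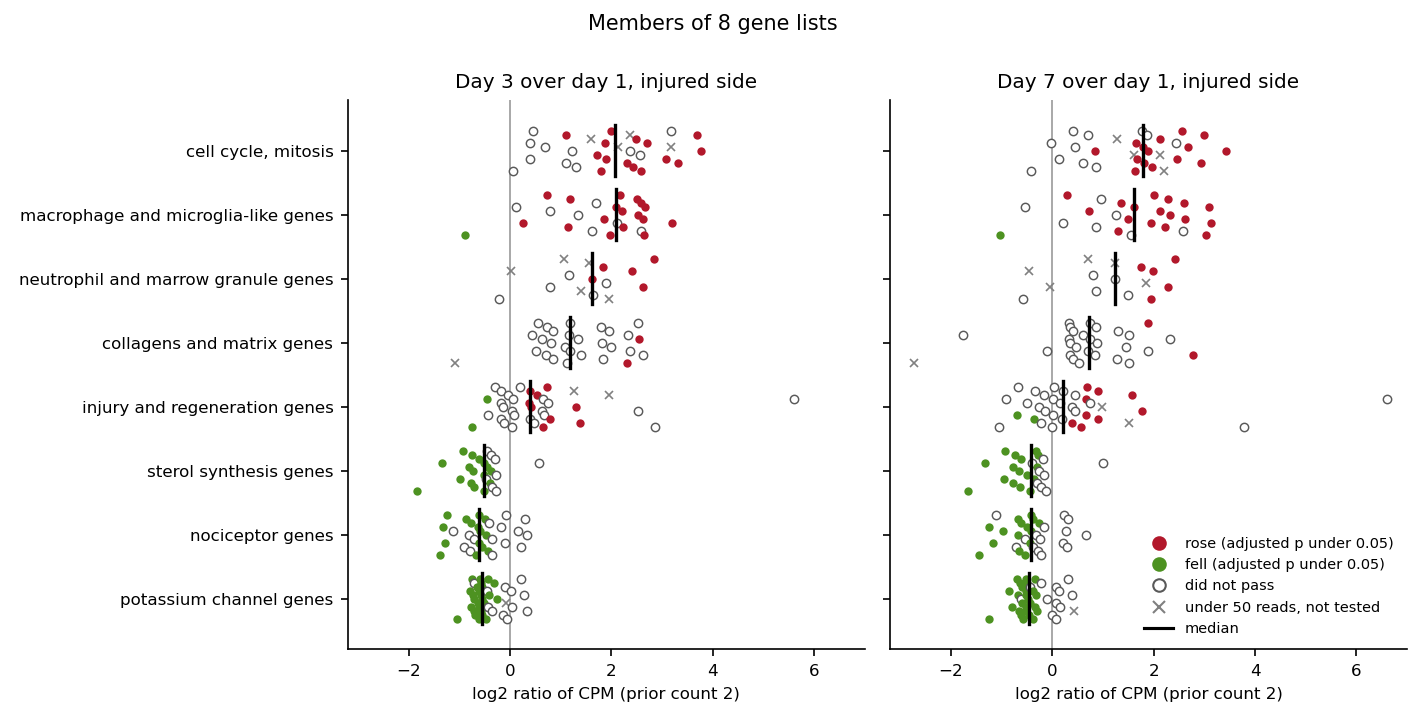
Log2 ratio of CPM at day 3 (left) and day 7 (right) to day 1 on the injured side for every member of 8 gene lists (rows); filled points passed the test over both days (red rose, green fell), open points did not, crosses had under 50 reads and were not tested, and bars are medians over all members. Most mitosis, macrophage and marrow members lie right of 0 and most sterol, nociceptor and channel members left of it, while 2 injury genes (Sprr1a and Ecel1) stand far from the rest of their list.

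Macrophage genes rose as a group from a low day 1 level. Of 25 measured macrophage and microglia-like genes 17 rose and 1 fell, against 6.16% and 8.51% of all genes, and the median was 2.09 at day 3 and 1.61 at day 7 on the log2 scale, beside 0.06 and 0.20 contralaterally. Against the pool without injury the list stood at -0.48 on injured day 1, and at 1.23 and 1.07 on days 3 and 7. Mrc1, the mannose receptor CD206 (chr2:14229392-14332057), had 7.20, 46.1 and 36.2 CPM on the injured side, 7.69, 14.1 and 15.8 CPM contralaterally and 22.01 and 17.5 CPM without injury. Day 1 was thus the lowest injured level and both later injured libraries exceeded the other 6, with a rise of 2.52 ± 0.19 (log2; edgeR adjusted p = 0.000781). Adgre1, the F4/80 antigen, had 2.63, 16.6 and 16.6 CPM and Cx3cr1, the fractalkine receptor, 2.33, 15.1 and 20.8 CPM. The log2 estimate of Adgre1 was 2.65 on the injured and 0.86 on the contralateral side. Fcrls, a microglia-enriched Fc receptor-like gene, had 2.78, 32.3 and 30.9 CPM and 2.12, 6.81 and 10.05 CPM contralaterally (an 11.3-fold injured rise, SE 0.27 log2, edgeR adjusted p = 0.000823).

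Csf1r, the receptor of colony-stimulating factor, had 10.5, 45.7 and 63.6 CPM and did not pass (edgeR adjusted p = 0.0782). The member that fell was Ly86, a Toll-like receptor partner, with 147, 79.0 and 72.4 CPM on the injured side and 177 and 172 CPM without injury. Microglia and perineuronal macrophages cannot be told apart by this list in bulk ganglia. The summed level of the 10 monocyte genes was 98.1, 328 and 150 CPM on the injured side and 162, 76.4 and 104 CPM contralaterally. The list's medians were 1.14 and 0.72 at days 3 and 7, with contralateral ones of -1.93 and -1.36. None of the 7 measured passed on either side. Fn1, which fibroblasts also express, made up much of the injured sum with 44.4, 229.8 and 81.9 CPM.

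Of 22 measured genes for lipid-handling macrophages 7 rose and 2 fell (6.16% and 8.51% of all genes). Trem2, a lipid-sensing receptor of macrophages, had 0.745, 7.60 and 7.31 CPM on the injured side and 0.990, 1.18 and 2.63 CPM contralaterally (3.31 ± 0.51 log2, edgeR adjusted p = 0.00659). Plin2, which coats lipid droplets, had 75.2, 182 and 194 CPM and Abca1, a cholesterol exporter, 108, 311 and 383 CPM. Both are also made by other cells. The protease gene Mmp12 had 2 reads on day 1 and 52 and 40 later, ratios of 24.3 (95% counting interval 6.39 to 206) and 19.0 (4.93 to 162). Of 15 measured complement genes 3 rose (C1qa, C1qc and C3ar1) and 1 fell (Cd55), C3ar1 losing its call under limma-voom; of all genes 6.16% rose and 8.51% fell. C1qa had 10.2, 47.3 and 43.9 CPM on the injured side and 10.2, 13.8 and 17.9 CPM contralaterally (2.16 ± 0.17 log2, edgeR adjusted p = 0.000823).

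Of 20 measured chemokine and cytokine genes 5 rose, against 6.16% of all genes: Csf1, Il34, Ccl8, Tgfb1 and Cxcl16. Ccl8 and Tgfb1 did not pass under limma-voom, and Tgfb1 also not without contralateral day 3 or day 7. The log2 estimate of Ccl8 was 2.50 on the injured and 3.36 on the contralateral side, that of Tgfb1 1.10 and -0.32. No gene of the list passed contralaterally. Csf1, the macrophage growth factor made by injured sensory neurons (chr3:107741048-107760469), had 59.1, 176 and 204 CPM on the injured side, 31.4, 57.8 and 45.6 CPM contralaterally and 20.96 and 21.3 CPM without injury. The injured rise was 1.68 ± 0.17 (log2; edgeR adjusted p = 0.00493), and all 3 injured libraries exceeded the contralateral ones. Il34, which shares the receptor of Csf1, had 27.4, 43.2 and 41.2 CPM. The list's median was 0.90 at day 3 and 0.04 at day 7, beside -0.36 and 0.34 contralaterally. Of its 20 measured genes 14 were highest at day 3, against 28.4% of all genes. Il6 had 3.62, 2.92 and 1.70 CPM and did not pass. Among genes in no list, Sh2d1b2, an adaptor of SLAM receptors, had 2 reads on day 1 and 42 and 95 later (ratios 19.6, interval 5.10 to 167, and 45.1, interval 12.2 to 378).

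Genes of mitosis rose from a low day 1 level. Of 26 measured mitosis genes 15 rose (6.16% of all genes) and none fell, 23 of the 26 were highest at day 3 (28.4% of all genes), and the median over all 30 list genes was 2.06 at day 3 and 1.79 at day 7. On the contralateral side the list had the opposite sign, at -1.02 and -0.73. Set against the pool without injury it stood at -0.53, 1.58 and 1.18 on injured days 1, 3 and 7 and at 1.11 on contralateral day 1. Cdk1, the kinase that drives entry into mitosis, had 0.397, 6.26 and 3.68 CPM on the injured side, 4.01, 1.47 and 2.44 CPM contralaterally and 1.77 and 0.972 CPM without injury. Its injured day 1 library was the lowest of the 8, and the fitted rise was 3.63 ± 0.60 (log2; edgeR adjusted p = 0.00851). Top2a, a DNA topoisomerase, had 0.894, 13.3 and 10.5 CPM and 9.06, 2.22 and 4.84 CPM contralaterally. Ube2c, a ubiquitin-conjugating enzyme of mitotic exit, had 0.447, 3.43 and 2.88 CPM, and Ccnb2, a B-type cyclin, 0.298, 3.20 and 2.22 CPM. The log2 estimate of Ube2c was 2.80 on the injured and -1.78 on the contralateral side. Prc1, which bundles spindle microtubules, had 9.09, 30.0 and 35.9 CPM on the injured side, 7.45, 9.56 and 9.44 CPM contralaterally.

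The marrow granule genes described next moved with the mitosis list on both sides: their summed level was 39.6, 115 and 95.6 CPM on the injured side and 609, 61.0 and 99.1 CPM contralaterally, and that of the mitosis list 54.2, 174 and 144 CPM and 133, 61.7 and 77.5 CPM. Their part in the mitosis result was not tested. Among 21 measured DNA replication genes 3 rose (Rrm2, Mcm6 and Mcm5) and none fell, against 6.16% and 8.51% of all genes. Mcm5 lost its call in 5 of 13 alternatives. Rrm2, a ribonucleotide reductase subunit, had 0.794, 6.21 and 4.43 CPM on the injured side and 6.32, 1.56 and 2.21 CPM contralaterally. The replication factor gene Pclaf had 1 read on injured day 1 and 68 and 22 later, ratios of 63.5 (interval 11.02 to 2544) and 20.9 (3.38 to 862). Its call (edgeR adjusted p = 0.0465) was lost without contralateral day 3 or day 7.

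Genes of late cell cycle often carry a CCAAT box, bound by the factor NF-Y, and the cell cycle homology element TTTGAA in their promoters, and the mitosis genes that rose together are shown with these letters. Promoter windows of 300 bases (250 before to 50 after the start; RefSeq, GRCm38.p6) were searched, and a gene with several windows was counted once if any of them held the letters. In these windows TTTGAA on either strand was found in 18 of the 23 mitosis genes that have a window (78.3%), against 20.2% of 27025 genes. CCAAT was found in 19 of them (82.6%), against 41.1%. In 21 DNA replication genes, TTTCGCGC and TTTGGCGC, forms of the E2F site, were each found in 5 (23.8%), against 0.374% and 0.585% of all genes. A match describes the sequence and is neither a site shown to be bound nor a cause. Below are 150 bases upstream of 3 genes that rose, 5′ to 3′ on the gene's strand and outside any GENCODE exon, chosen because both elements fall in them. Capitals mark TTTGAA or CCAAT on either strand.
Cdk1 (chr10:69352939-69353088, minus strand): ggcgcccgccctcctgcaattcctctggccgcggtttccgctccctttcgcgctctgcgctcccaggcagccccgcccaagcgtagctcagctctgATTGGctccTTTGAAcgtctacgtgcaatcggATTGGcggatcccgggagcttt
Top2a (chr11:99024190-99024339, minus strand): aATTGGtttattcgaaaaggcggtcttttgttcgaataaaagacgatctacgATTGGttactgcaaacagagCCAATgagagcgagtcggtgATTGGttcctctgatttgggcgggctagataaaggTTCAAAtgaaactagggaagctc
Cdc20 (chr4:118437353-118437502, minus strand): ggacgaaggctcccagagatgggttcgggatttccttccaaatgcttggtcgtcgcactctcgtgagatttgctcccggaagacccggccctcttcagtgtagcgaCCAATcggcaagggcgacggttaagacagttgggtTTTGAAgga

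Cdk1 holds 2 CCAAT elements and 1 TTTGAA in this stretch, Top2a 4 and 1, and Cdc20, an activator of the anaphase-promoting complex, 1 and 1. Among the 6 operated libraries all 3 genes were lowest on injured day 1, and Cdc20 rose by 1.90 on the log2 scale (edgeR adjusted p = 0.0248). Its contralateral estimate was -1.46.

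Neutrophil and marrow granule genes went in opposite directions on the 2 sides. Of 10 measured, 5 rose on the injured side (Ltf, Ngp, Camp, S100a8 and Mmp8), against 6.16% of all genes. On the contralateral side 4 of the 10 fell, against 0.118% of all genes. The read limit, set on the injured libraries only, left 5 of the 15 list genes untested on both sides. The list's median was 1.62 at day 3 and 1.24 at day 7 in the injured ganglia and -3.06 and -2.52 contralaterally, and injured day 1 stood at -1.94 against the pool without injury while contralateral day 1 stood at 1.91. Ngp, a granule protein of immature neutrophils, had 2.04, 15.2 and 11.3 CPM on the injured side, 64.9, 8.99 and 11.2 CPM contralaterally and 35.2 and 11.5 CPM without injury. The later libraries of both sides thus lay between the day 1 libraries. The lactoferrin gene Ltf had 1.59, 10.3 and 8.06 CPM and 35.9, 5.54 and 6.48 CPM contralaterally. S100a8, part of calprotectin, had 5.61, 20.3 and 19.2 CPM and 121, 11.9 and 18.5 CPM contralaterally. The calls of Ngp, Ltf, Camp and S100a8 did not hold when all 8 libraries were fitted. The erythroid list had the same signs, with medians of 1.21 and 0.53 and contralateral ones of -1.75 and -0.76, and none of its 6 measured genes passed.

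The change on the injured side minus the change on the contralateral side in a fit that blocks on the pool of mice, differed from 0 for 7 genes, all higher (0.0517%), and for no gene lower (0%), with 687 and 792 genes at an unadjusted p under 0.05. The 7 were Slc4a1, Ngp, Car1, Ltf, Cybb, Ncf1 and Anxa1, genes of red cells, granulocytes and other myeloid cells. In simulated data with no change planted, this fit made more calls than these 7, so the 7 are not separated from false calls and are given as values. The count of 7 became 0 with limma-voom, with total-count scaling or with a minimum of 200 reads, and 27 higher and 5 lower with DESeq2. Slc4a1, the band 3 anion exchanger of red cells, had 1.09, 4.54 and 2.26 CPM on the injured side and 41.9, 2.84 and 1.93 CPM contralaterally. Anxa1, an anti-inflammatory annexin, had 11.3, 64.5 and 53.1 CPM on the injured side and 27.6, 19.7 and 21.3 CPM contralaterally, so in this gene the injured libraries moved more. Cybb, the NADPH oxidase subunit of phagocytes, had 1.54, 9.74 and 13.3 CPM and 11.4, 4.26 and 7.84 CPM contralaterally. Among the genes with lowest p in the lower direction were Serpina3g, Htr3a and Tmem79, with edgeR adjusted p of 0.0965, 0.119 and 0.124.

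**Figure D5:**
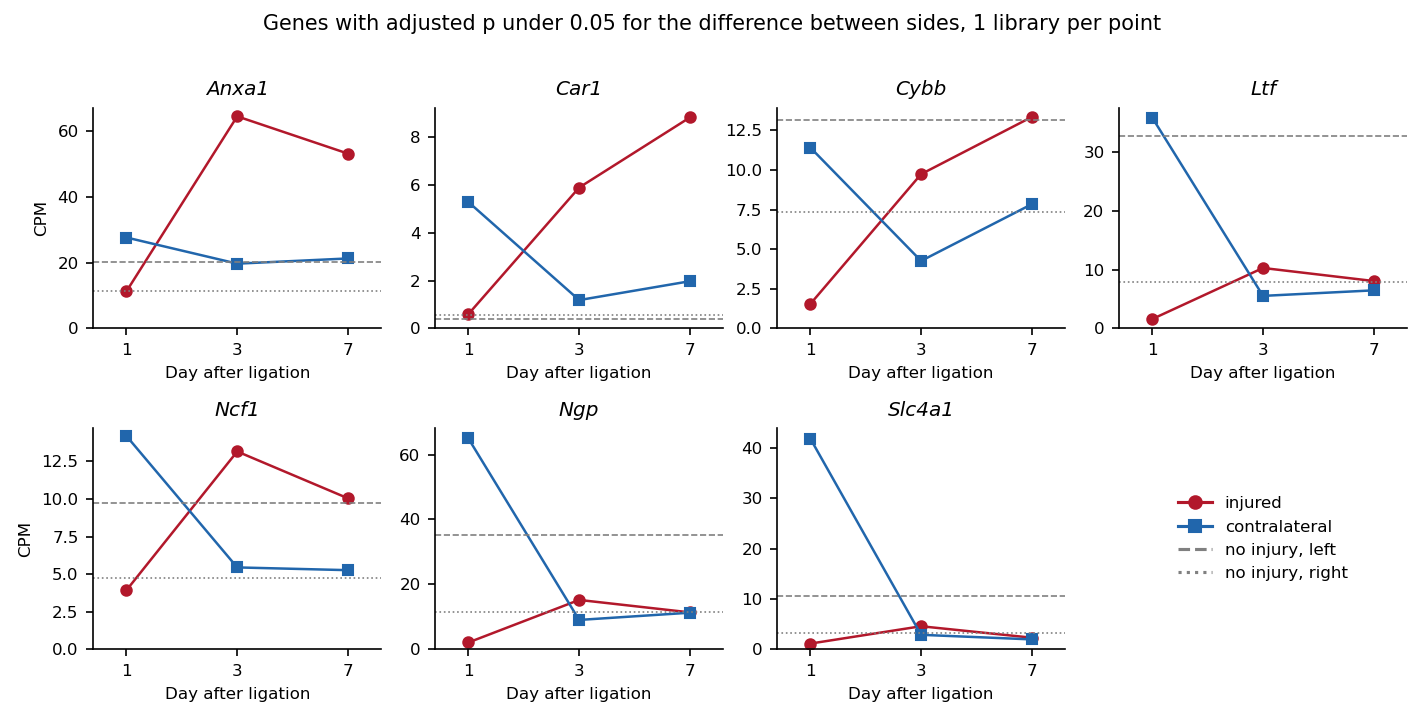
CPM by day for the 7 genes with an adjusted p under 0.05 for the difference between sides, with 1 library per point: injured (red circles), contralateral (blue squares) and the left (dashed) and right (dotted) library labelled no injury. In each panel the contralateral day 1 library is above the injured day 1 library, and the injured side is higher at the later days than at day 1.

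A surface antigen of neutrophils, Ly6g, behaved otherwise: it had 1 read on injured day 1 and 63 and 100 on days 3 and 7, and 15, 12 and 15 contralaterally. The ratios on the injured side were 58.8 (interval 10.2 to 2359.9) and 94.99 (16.7 to 3789). Ly6g belongs to a family of near-identical genes, so its reads are uncertain. Clec12a, an inhibitory receptor of myeloid cells, had 5, 86 and 77 reads, and 79, 22 and 57 contralaterally.

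Matrix and vessel genes mostly peaked at day 3, and few passed a test whose error includes the step from day 3 to day 7. Of 27 measured collagen and matrix genes 26 were highest at day 3, against 28.4% of all genes. The list's medians were 1.18 and 0.73 at days 3 and 7, and the contralateral ones 0.43 and 0.81. Only Col14a1 and Loxl2 rose (7.41%), near the 6.16% of all genes. Col14a1, a fibril-associated collagen, had 10.3, 51.7 and 38.4 CPM on the injured side and 9.43, 23.8 and 29.6 CPM contralaterally (2.12 ± 0.26 log2, edgeR adjusted p = 0.00922). Loxl2, a collagen cross-linking enzyme, had 4.52, 26.9 and 31.5 CPM. Col1a1, the main fibrillar collagen gene, had 66.4, 333 and 245 CPM against 43.9, 66.7 and 125 CPM contralaterally and did not pass (edgeR adjusted p = 0.178). The list's median on day 1 was -0.54 on the injured side and -1.19 on the contralateral side against the pool without injury.

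The genes with the sharpest day 3 maximum were Clca3a2, Arg1, Cxcl14, Hmga2, Lgr6 and Gdnf, and these ratios have no test. Arg1, an arginase of alternatively activated macrophages and injured neurons, had 5.61, 32.5 and 2.92 CPM on the injured side and 1.37, 2.60 and 1.55 CPM contralaterally. Gdnf, the glial cell line-derived neurotrophic factor, had 23, 114 and 7 reads, and Lgr6, an R-spondin receptor, 29, 249 and 50. Cxcl14 had 5.96, 31.2 and 5.75 CPM and 3.02, 1.70 and 3.38 CPM contralaterally. In Arg1, Gdnf, Lgr6 and Cxcl14 the injured day 3 library was the highest of the 8. Of 16 measured repair Schwann cell genes 4 rose (Runx2, Gfra1, Ncam1 and Megf10) and 2 fell (Bdnf and Mycbp2). The shares of all genes were 6.16% and 8.51%. Gfra1, the GDNF receptor, which sensory neurons also express, had 353, 585 and 619.8 CPM (0.77 ± 0.13 log2, edgeR adjusted p = 0.0098). Runx2, a transcription factor, had 4.72, 9.97 and 11.5 CPM. The matrix gene Tnc, which repair Schwann cells make, had 7.10, 44.3 and 12.0 CPM and did not pass.

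Of 18 satellite glia genes 2 rose (Ednrb and Glul) and 2 fell (Atp1b2 and Lgi4), near the 6.16% and 8.51% of all genes. Glul, the glutamine synthetase of satellite cells, had 411, 617 and 565 CPM on the injured side and 403, 422 and 401 CPM contralaterally. Atp1b2, a sodium pump subunit, had 186, 99.2 and 100.2 CPM and 102, 83.0 and 84.4 CPM contralaterally (-0.90 ± 0.07 log2, edgeR adjusted p = 0.000669). Lgi4 did not pass under limma-voom. Of 20 myelin genes 2 rose (10%, against 6.16% of all genes), Pmp2 and Dhh (the latter not under limma-voom). The median was 0.68 and 0.57, with contralateral values of 0.00 and 0.60. The peripheral myelin gene Pmp2 had 3, 74 and 55 reads, and 2, 17 and 28 contralaterally (injured ratios 23.0, interval 7.58 to 114, and 17.4, interval 5.66 to 87.0). None of 19 endothelial and mural genes passed; their median was 0.42 at day 3 and -0.10 at day 7.

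Several genes were highest on injured day 1 and fell thereafter. The acute-phase genes Saa1 and Saa2, which encode serum amyloid A and are near-identical neighbours whose reads are uncertain, are an example. Saa1 had 24.8, 3.94 and 1.89 CPM on the injured side, 6.98, 1.04 and 0.282 CPM contralaterally, and 0.143 and 0.0463 CPM without injury. Its fall was -3.08 ± 0.56 (log2; edgeR adjusted p = 0.0415) beside a contralateral estimate of -3.39 ± 0.71 that did not pass. Itih3, another secreted acute-phase gene, had 12.6, 1.99 and 1.98 CPM and 9.76, 1.80 and 1.69 CPM contralaterally, and fell on both sides (edgeR adjusted p = 0.00072 and 0.00586). Areg, an epidermal growth factor receptor ligand, had 114, 21 and 7 reads, and 25, 2 and 10 contralaterally. Srd5a2, a steroid reductase, had 116, 10 and 9 reads on the injured side, 12.4 and 13.6 times lower at days 3 and 7, and 60, 36 and 28 contralaterally (injured fall -3.68 ± 0.40, edgeR adjusted p = 0.00146).

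The remaining large falls were Tph1 (99, 13 and 8 reads), a serotonin-synthesising enzyme, Abra (77, 9 and 11), an actin-binding protein, Ano2 (86, 18 and 14), a calcium-activated chloride channel, Uts2b, a urotensin peptide gene, Slc25a34, a mitochondrial carrier, Serpina3m and Accsl. Serpina3m, Accsl and Slc25a34 did not pass with DESeq2, and Saa2 not without contralateral day 3 or day 7. The 12 were chosen to be at least 2-fold below day 1 in both later injured libraries, and these falls ranged from 3.82 to 17.1 times. The serine protease inhibitor Serpina3g, from a cluster of similar genes, had 167, 62.5 and 60.5 CPM and 141, 100.2 and 104 CPM contralaterally. In the interferon-induced list 4 of 30 genes fell (Stat2, Ddx58, Ifi35 and Ifit2) and 2 rose (Trim30a and Oas2), near the 8.51% and 6.16% of all genes. Its median over the pool without injury was 0.63, 0.83 and 0.28 at injured days 1, 3 and 7, and Ifit1 had 87.2, 57.3 and 35.1 CPM without passing.

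Genes of sterol synthesis also fell. Of 24 measured, 16 fell (8.51% of all genes) and none rose, 23 were highest on injured day 1 (41.2% of all genes), and the medians were -0.51 and -0.42 at days 3 and 7 with contralateral ones of -0.17 and -0.15. Injured day 1 stood at 0.36 above the pool without injury, and days 3 and 7 at -0.23 and -0.13. Stard4, which carries cholesterol within cells, had 237, 93.4 and 94.5 CPM on the injured side, 162, 111 and 108 CPM contralaterally and 147 and 139 CPM without injury. It fell on both sides, by -1.34 ± 0.07 (log2; edgeR adjusted p = 0.000115) and -0.56 ± 0.07 (edgeR adjusted p = 0.032). Lss, lanosterol synthase, had 114, 57.4 and 59.99 CPM and 82.9, 55.2 and 60.9 CPM contralaterally, and Dhcr7, which makes the last step of cholesterol synthesis, 123, 69.7 and 72.0 CPM.

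Sterol genes are controlled by SREBP factors acting together with NF-Y. CCAAT was found in at least 1 promoter window of all 16 sterol genes that have any (100%), against 41.1% of all genes, though not in every window of Dhcr7 and Pmvk, whereas TCACNCCAC, one written form of the sterol element, was found in 1 of 16 (6.25%) against 1.44%. Stretches of 150 upstream bases are shown for 3 genes that fell, with CCAAT on either strand in capitals, from the same RefSeq table and outside any GENCODE exon.
Mvk (chr5:114444119-114444268, plus strand): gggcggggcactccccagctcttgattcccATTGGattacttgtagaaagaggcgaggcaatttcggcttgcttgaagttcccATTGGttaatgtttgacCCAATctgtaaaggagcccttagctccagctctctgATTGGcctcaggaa
Mvd (chr8:122443423-122443572, minus strand): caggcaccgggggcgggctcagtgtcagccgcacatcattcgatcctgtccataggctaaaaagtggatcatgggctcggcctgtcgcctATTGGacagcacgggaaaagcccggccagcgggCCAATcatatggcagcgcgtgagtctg
Lss (chr10:76531438-76531587, plus strand): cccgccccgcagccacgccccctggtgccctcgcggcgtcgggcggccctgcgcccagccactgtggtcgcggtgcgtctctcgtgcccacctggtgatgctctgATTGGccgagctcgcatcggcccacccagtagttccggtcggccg

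Mvk (mevalonate kinase) holds 4 such elements in this stretch, Mvd (mevalonate decarboxylase) 2 and Lss 1. On the injured side Mvk fell by 0.43 and Mvd by 0.68 on the log2 scale (edgeR adjusted p = 0.016 and 0.00177). The contralateral estimate of Mvd was -0.46.

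Day 7 stood out for a few genes. The largest day 7 maxima were Alb, Reg3b, Atp2a1, Mylpf, Reg1 and Acta1, with no test. The muscle genes moved alike on both sides. Atp2a1, a calcium pump of muscle, had 1.69, 4.08 and 28.0 CPM on the injured side and 3.16, 3.36 and 20.9 CPM contralaterally. In the injured ganglia 13 of 14 measured muscle genes were highest at day 7, against 30.4% of all genes. The skeletal muscle list's median at day 7 was 2.25 on the injured and 2.58 on the contralateral side. Alb, serum albumin, had 0, 3 and 120 reads and 1, 0 and 58 contralaterally. The regenerating-family genes differed by side. Reg3b had 1, 2 and 89 reads in the injured ganglia and 3, 3 and 7 contralaterally, and Reg1 0, 13 and 71 reads and 0, 1 and 7, so that Reg1 was at least 22.5-fold higher at day 7 than at day 1 (against 3 reads). Pkhd1, the fibrocystin gene, had 0, 18 and 53 reads, at least 5.602-fold and 16.8-fold higher, a call (edgeR adjusted p = 0.0429) that did not hold without contralateral day 3 or day 7. The genes lowest at day 3 were Xirp2, Mobp, Plin4 and Nell1, and the first 3 were also lowest at day 3 contralaterally.

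Of the 6 genes that rose on the contralateral side 5 also rose on the injured side, where 6.16% of all genes rose. Of the 16 that fell on the contralateral side 10 also fell on the injured side, where 8.51% of all genes fell. Another 5 genes, Ngp, Ltf, Camp and Ncf1 among them, rose on the injured and fell on the contralateral side. Besides Nts and Lipn, those that rose on both sides include Tubb6, a beta-tubulin. It had 39.8, 148 and 162 CPM on the injured side and 19.0, 42.2 and 36.0 CPM contralaterally. Ednrb, the endothelin B receptor of satellite glia, changed by the same amount on both sides: 61.2, 146 and 151 CPM and 52.4, 129 and 125 CPM, with 122 and 106 CPM without injury. Its log2 rise was 1.28 ± 0.08 on the injured and 1.28 ± 0.08 on the contralateral side, and the difference between sides was 0.00 ± 0.13. Among those that fell on both sides, Ltbp2, an extracellular matrix protein gene, had 11.8, 3.80 and 3.58 CPM and 15.4, 3.36 and 5.35 CPM contralaterally. Olfr920, an odorant receptor gene, had 21.001, 5.10 and 5.19 CPM and 17.0, 3.74 and 5.54 CPM. Ppp1r15a, a phosphatase subunit of the stress response, had 84.9, 46.9 and 51.8 CPM and 56.3, 35.8 and 35.5 CPM contralaterally, and fell on both sides (edgeR adjusted p = 0.00164 and 0.0394).

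Other lists held few or no calls, beside 6.16% of all genes that rose and 8.51% that fell. Of 22 unfolded protein and integrated stress response genes 2 fell (9.09%), near the share of all genes. Of 14 measured immediate early genes 2 rose (Dusp1 and Nr4a2). In the glucocorticoid response list 2 of 18 rose, both already named (Dusp1 and Cdkn1a), and in the clock list 2 of 17, Per2 and Hlf. In the hypoxia list 2 of 14 rose (Slc2a1 and Ndrg1) and 2 fell (Vegfa and Bnip3). Of 16 measured antigen presentation genes B2m rose and Tap2 fell (6.25% each), near the shares of all genes. Of 8 polyamine genes Odc1 rose. No call was made among 12 heat shock, 19 ribosomal protein, 6 mitochondrially encoded, 1 lymphocyte and 4 sex-linked genes measured. In the adipocyte list Car3 rose, 1 of 7 measured (14.3%), from 6.26 to 64.3 and 94.0 CPM, beside 4.67, 20.9 and 27.8 CPM contralaterally. In the muscle list Tnni1 rose, 1 of 14 measured (7.14%). Car3 and Tnni1 did not pass with all 8 libraries, Per2, Hlf, Nr4a2, Odc1, Tap2 and Ifi35 not with DESeq2. Aqp4 and Slc1a2 fell in the list of central nervous system glia, 2 of 7 measured (28.6%, against 8.51% of all genes). The list's median was -0.63 at day 3 and 0.27 at day 7, beside -0.30 and 0.30 contralaterally.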

How the data were processed

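RNA of 8 libraries was measured as whole-number read counts per gene in 1 deposited table of 53801 Ensembl genes. The authors' counts were used as deposited. Per the submitters' processing notes, which give names without roles, cutadapt 1.16, STAR 2.5.4a, featureCounts 1.6.3, DESeq2 and the build GRCm38 were used. Strand setting, multimapping rule and annotation version were not given in the sources used here; reads of overlapping or near-identical genes are therefore uncertain. Names and positions came from GENCODE M21 (53706 IDs matched).

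Genes with at least 50 reads in the highest injured library were fitted with edgeR 4.0.16 in R 4.3.3 (quasi-likelihood, robust, TMM over 8 libraries, Benjamini-Hochberg adjustment at 0.05) on the 6 operated libraries with 4 group means and 2 residual degrees of freedom. The lone day 1 library of each side is assumed to vary like the later ones, and a gene that keeps moving from day 3 to day 7 has a large error. The difference between sides was fitted with a block for the pool (1 residual degree of freedom), because both sides of a pool come from the same mice. The 2 sides' deviations from their means had correlations of 0.406 (day 1 pool), -0.0147 (day 3 pool) and 0.496 (day 7 pool). Ratios of single libraries used log2 CPM with a prior count of 2 and have no test. Counting intervals are exact conditional 95% intervals, cover counting error only, and 0 reads were set to 3. At these depths 3 reads equal 0.139 to 0.146 CPM.

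Genes were named by rules: the 12 largest rises and falls past the test and 2-fold at both days; the 6 sharpest maxima at day 3 and at day 7 and the 4 minima at day 3; the side differences past the threshold or the 3 lowest p each way; the 4 largest called on both sides; and the 4 lowest p of each list. Predicted genes were counted and not named. The 12 abundant genes each way, further list members, Npy, Sprr1a, Atf3 and the printed promoters were chosen after their values were seen. The comparison, the 39 gene lists (749 genes, 748 in the table) and the tests were chosen with earlier results of these data known. Alternatives were RLE and total-count scaling, minimums of 10, 200 or 1 reads, DESeq2 1.42.0, limma-voom (limma 3.58.1), all 8 libraries and other prior counts. Each operated library except injured day 1 was also left out in turn. The injured-side comparison cannot be made without that library. Scripts were tested on simulated data; with no change planted, both fits still made some calls, and that of the difference between sides made more than were called here. No library pair agreed within sampling noise. Results of some genes are not reported here.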

Additional observations from a re-analysis of the deposited data

Results flagged for a closer look

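For 7 genes the change from day 1 to days 3 and 7 differed between the sides in the fit with the pool as a block (edgeR adjusted p under 0.05), and in each of them the later change was higher on the injured side. The differences, on the log2 scale, were 5.74 for Slc4a1, 5.38 for Ngp, 5.36 for Car1, 5.10 for Ltf, 3.85 for Cybb, 2.96 for Ncf1 and 2.81 for Anxa1, with standard errors from 0.21 for Anxa1 to 0.46 for Car1. In all 7 the contralateral day 1 library exceeded the injured day 1 library, and in Slc4a1, Ngp, Ltf and Ncf1 it was the highest of the 8. The 15 marrow granule genes, whose summed level is given above, move with these genes, and their part was not tested. None of the 7 passed under limma-voom, total-count scaling or a minimum of 200 reads, the fit has 1 residual degree of freedom, and in simulated data with no change planted it made more calls than these 7.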

How the results depend on the processing

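For the injured side, 829 of the 835 higher and 1149 of the 1155 lower calls under RLE scaling were shared with the reported ones, and no alternative called a gene in the opposite direction. All genes with a read gave 1733 higher, DESeq2 690 lower, and leaving out 1 library gave 635 to 1515 higher and 739 to 1498 lower. Contralateral counts, 6 and 16 as reported, were 22 and 70 with a minimum of 10 reads, 286 and 389 with all genes with a read and 50 and 36 with DESeq2. They were 19 higher with 8 libraries, 10 lower with a minimum of 200 reads, and 8 to 303 higher and 5 to 258 lower with 1 library left out. The side difference, 7 higher and 0 lower as reported, gave 0 higher under total counts, a minimum of 200 reads and limma-voom, 40 and 2 with a minimum of 10 reads, 403 and 209 with all genes with a read, 27 and 5 with DESeq2 and 40 and 48 with 8 libraries. Without the pool as a replicate block it gave 16 and 7. It could not be fitted with a library left out, which leaves 0 residual degrees of freedom. No paired analysis was possible for the injured side alone because pool and day are the same. Counts of genes 2-fold apart at day 3 were 1167 and 348 with a minimum of 10 reads and 291 and 61 with 200, and at day 7 1039 and 400, and 231 and 70. The estimate of Kdm5d, which did not pass, changed sign without injured day 7 (-0.0058, against 0.06 with all libraries and 0.13 without injured day 3). The cause was not tested, except that fewer libraries or other genes entered these fits. Depth limits genes with 3 or fewer reads on day 1, where the printed counting intervals span more than 10-fold.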

Other observations

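Genes of serotonin signalling moved in different directions on the injured side, a grouping made after their values were seen. The transporter Slc6a4 had 68, 886 and 1117 reads on days 1, 3 and 7, while the synthesising enzyme Tph1 had 99, 13 and 8. Both receptors among the named genes fell: Htr3a (204, 85.4 and 74.3 CPM) and Htr1a, an inhibitory receptor, with 18.7, 7.00 and 9.20 CPM and a log2 change of -1.21 ± 0.17 (edgeR adjusted p = 0.00351). Contralaterally Htr1a had 18.2, 13.3 and 13.2 CPM, Tph1 39, 10 and 8 reads, and neither passed.

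Values of 4 further lipid genes, chosen after they were seen and forming no fixed list, were as follows. The lipase family gene Pnliprp2 had 1 read on injured day 1 and 37 and 58 later (ratios 34.5, interval 5.83 to 1401, and 55.1, interval 9.505 to 2213), and 0, 7 and 6 reads contralaterally. Acat3, an acetyl-CoA acetyltransferase, had 3, 33 and 62 reads. Thrsp, a gene of lipid synthesis, fell from 21.4 to 10.2 and 8.35 CPM (-1.21 ± 0.17 log2, edgeR adjusted p = 0.00365). Plin4, a lipid droplet gene, had 26.0, 4.59 and 10.8 CPM on the injured and 29.5, 3.41 and 10.5 CPM on the contralateral side, against 1.10 and 2.27 CPM without injury, and did not pass on either side.

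The tissue inhibitor Timp1 had 45.9, 61.5 and 13.5 CPM on the injured and 12.7, 9.08 and 3.99 CPM on the contralateral side, lowest at day 7 in both. The hemoglobin gene Hbb-bs, one of several near-identical copies, had 256, 566 and 324 CPM on the injured and 560, 224 and 473 CPM on the contralateral side.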
